A study of Mus musculus with 3 samples.

Results

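The fibrillar collagen genes were examined in nuclei of the newborn mouse aortic valve. The family was taken by name as 10 genes (Col1a1, Col1a2, Col3a1, Col5a1, Col5a2, Col5a3, Col11a1, Col2a1, Col24a1 and Col27a1) out of 36167 listed features, and all 10 were present in the tables. Nuclear RNA was read by the gene expression part of the 10x Genomics Multiome assay in 3 pools of postnatal day 1 aortic valve structures, each holding 22 to 24 aortic roots. All 3 pools carry the strain label B6.Cg-Scx<tm1.1(EGFP)Skom (stock RBRC11098), an allele that places the fluorescent reporter EGFP at Scx, which encodes scleraxis, a transcription factor best known from tendon. The zygosity and sex of the pups are not given, no pool without the allele was analysed here, and each pool mixes many animals. With 1 group of samples, the comparisons are between classes of nuclei taken from the same pools, and no label gives a nucleus its cell type.

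Fibrillar collagens are made as procollagen chains that are hydroxylated and glycosylated in the endoplasmic reticulum, wound into triple helices, exported, trimmed of their end propeptides and packed into fibrils. Type I collagen (chains of Col1a1 and Col1a2) and type III collagen (Col3a1) form most of the fibril mass of soft tissues, while type V (Col5a1, Col5a2, Col5a3) and type XI (Col11a1 among its chains) sit inside fibrils and help to set their start and diameter. Type II collagen (Col2a1) is the main fibril of cartilage, and types XXIV (Col24a1) and XXVII (Col27a1) are fibrillar collagens with shorter helices that are best known from the skeleton. In the heart valve, dense type I and type III fibrils mark the fibrosa, the layer that bears load, and interstitial cells of the leaflet are the cells known to deposit them.

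Of 21140 deposited nuclei, 14073 had at least 1000 UMIs (unique molecular identifiers, each counting 1 captured RNA molecule) and at most 5% mitochondrial UMIs, and 13130 entered the analysis after nuclei with under 300 genes and marked doublets were removed. The pools gave 6459, 3078 and 3593 analysed nuclei, and pairs of pools shared 44 to 99 barcodes. Nuclei were clustered without the 10 collagens and 40 genes of collagen processing, and clusters were named from fixed marker genes. The 9 classes compared were valve interstitial-like (1447 nuclei), fibroblast-like (1041), mesothelial-like (366), smooth muscle-like (3033), pericyte-like (130), endothelial-like (2737), lymphatic endothelial-like (119), macrophage-like (275) and cardiomyocyte-like (2410). Valve interstitial-like nuclei therefore made up 11.3% ± 1.18 (SD, n = 3 pools) of the nuclei, and the tissue labelled aortic valve also held many nuclei with smooth muscle and cardiac muscle markers. In that class all 10 of its markers had UMIs and summed to between 7566 and 8718 CPM, against 963 to 1063 CPM in fibroblast-like nuclei. The same markers named the class, so this sum does not test its identity. The 3 unnamed clusters held 1445 nuclei.

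Levels are given in CPM, a gene's UMIs per 1000000 UMIs of the same class and pool, as mean ± SD over the 3 pools. These counts carry no correction for gene length, so levels are compared between classes of nuclei and not between genes. Over all analysed nuclei, the UMIs found for the members were 73255 for Col1a1, 81407 for Col1a2, 109924 for Col3a1, 12775 for Col5a1, 59776 for Col5a2, 409 for Col5a3, 2436 for Col11a1, 20138 for Col24a1, 7793 for Col27a1 and 48 for Col2a1. Pool 3 was the low pool for the type I and type III chains: over all analysed nuclei Col1a1 stood at 1216, 1277 and 537 CPM in pools 1, 2 and 3, Col1a2 at 1358, 1278 and 719 CPM, and Col3a1 at 1735, 1868 and 1017 CPM. Pool 3 was also the lowest in cardiomyocyte-like nuclei, where Col1a1 was 178, 168 and 65.3 CPM. Over 5% mitochondrial UMIs were found in 28.6%, 41.8% and 14.1% of the deposited nuclei of pools 1, 2 and 3, and the part of this difference in the collagen levels was not tested. Tests below keep the pool as a term of the model.

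For 7 of the 10 members the RefSeq table of gene starts (GRCm38.p6) held an entry. The 250 bases before the start are shown for 4 of them because their RNAs mark different classes below: Col1a2 and Col3a1, whose levels moved together, Col11a1 and Col24a1. Capitals mark matches to CCAAT or TATAAA on either strand, and each sequence runs 5′ to 3′ along the gene.
Col1a2, chr6:4505368-4505617, plus strand: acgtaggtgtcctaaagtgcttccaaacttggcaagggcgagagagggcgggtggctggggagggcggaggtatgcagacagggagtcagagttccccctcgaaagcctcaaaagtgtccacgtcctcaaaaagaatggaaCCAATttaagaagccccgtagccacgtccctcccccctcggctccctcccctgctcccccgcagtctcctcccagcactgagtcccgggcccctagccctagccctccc
Col3a1, chr1:45311288-45311537, plus strand: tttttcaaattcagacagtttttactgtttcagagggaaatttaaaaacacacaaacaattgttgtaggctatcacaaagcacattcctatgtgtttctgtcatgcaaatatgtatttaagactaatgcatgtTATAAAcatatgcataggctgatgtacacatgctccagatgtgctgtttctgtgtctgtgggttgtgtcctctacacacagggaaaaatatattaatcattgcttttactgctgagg
Col11a1, chr3:114030290-114030539, plus strand: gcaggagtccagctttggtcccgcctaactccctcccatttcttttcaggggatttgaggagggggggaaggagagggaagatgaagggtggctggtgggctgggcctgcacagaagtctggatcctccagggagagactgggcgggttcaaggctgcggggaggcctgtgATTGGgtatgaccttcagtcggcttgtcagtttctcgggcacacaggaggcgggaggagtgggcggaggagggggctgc
Col24a1, chr3:145292222-145292471, plus strand: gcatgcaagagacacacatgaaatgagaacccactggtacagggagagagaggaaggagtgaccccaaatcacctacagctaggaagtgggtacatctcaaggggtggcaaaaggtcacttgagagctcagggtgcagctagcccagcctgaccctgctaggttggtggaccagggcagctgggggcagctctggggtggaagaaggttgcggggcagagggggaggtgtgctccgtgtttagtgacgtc

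Counted from the start, Col1a2 held CCAAT at position -109, Col11a1 held it on the opposite strand at position -79, and Col5a3 held it at position -122. CCAAT occurs in 33.8% of the 32851 windows of the same length in the table. TATAAA was found in Col3a1 alone among the 7 members, at position -117, and occurs in 12.4% of all windows. The E-box letters CANNTG matched 4 times in Col3a1, 3 times in Col24a1, 1 time each in Col27a1 and Col5a3, and 0 times in Col1a2, Col5a1 and Col11a1, against 66.2% of all windows with a match. GGGCGG matched 2 times each in Col1a2, Col5a1, Col11a1 and Col5a3, 1 time in Col27a1 and 0 times in Col3a1 and Col24a1 (32.7% of all windows). The CArG box had no match in these 7 windows and occurs in 1.47% of all windows. Both strands were searched, no matches of different motifs overlapped, and a match here is only a match of letters. By base composition the Col3a1 window was 35.2% G and C and the Col5a1 window 76.4%. In the GENCODE annotation of GRCm38, Col3a1 and Col5a2 are neighbours on opposite strands with 0 protein-coding genes between them. Col5a1 is overlapped on the opposite strand by Gm13372, which the feature tables also list; how strand was used in counting is not given in the sources used here, so reads of this pair cannot be told apart.

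Summed over the 10 members, fibrillar collagen RNA was highest in mesothelial-like nuclei, at 18687 ± 3197 CPM, followed by fibroblast-like nuclei at 13519 ± 3312 CPM and valve interstitial-like nuclei at 8460 ± 1961 CPM. Smooth muscle-like nuclei held 5114 ± 868 CPM, pericyte-like 3435 ± 546, macrophage-like 3127 ± 502, endothelial-like 2895 ± 424, lymphatic endothelial-like 2136 ± 639 and cardiomyocyte-like 551 ± 211 CPM. Each member had its own order of classes, and the 10 fell into a few patterns that the plot of levels by class shows.

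**Figure D1:**
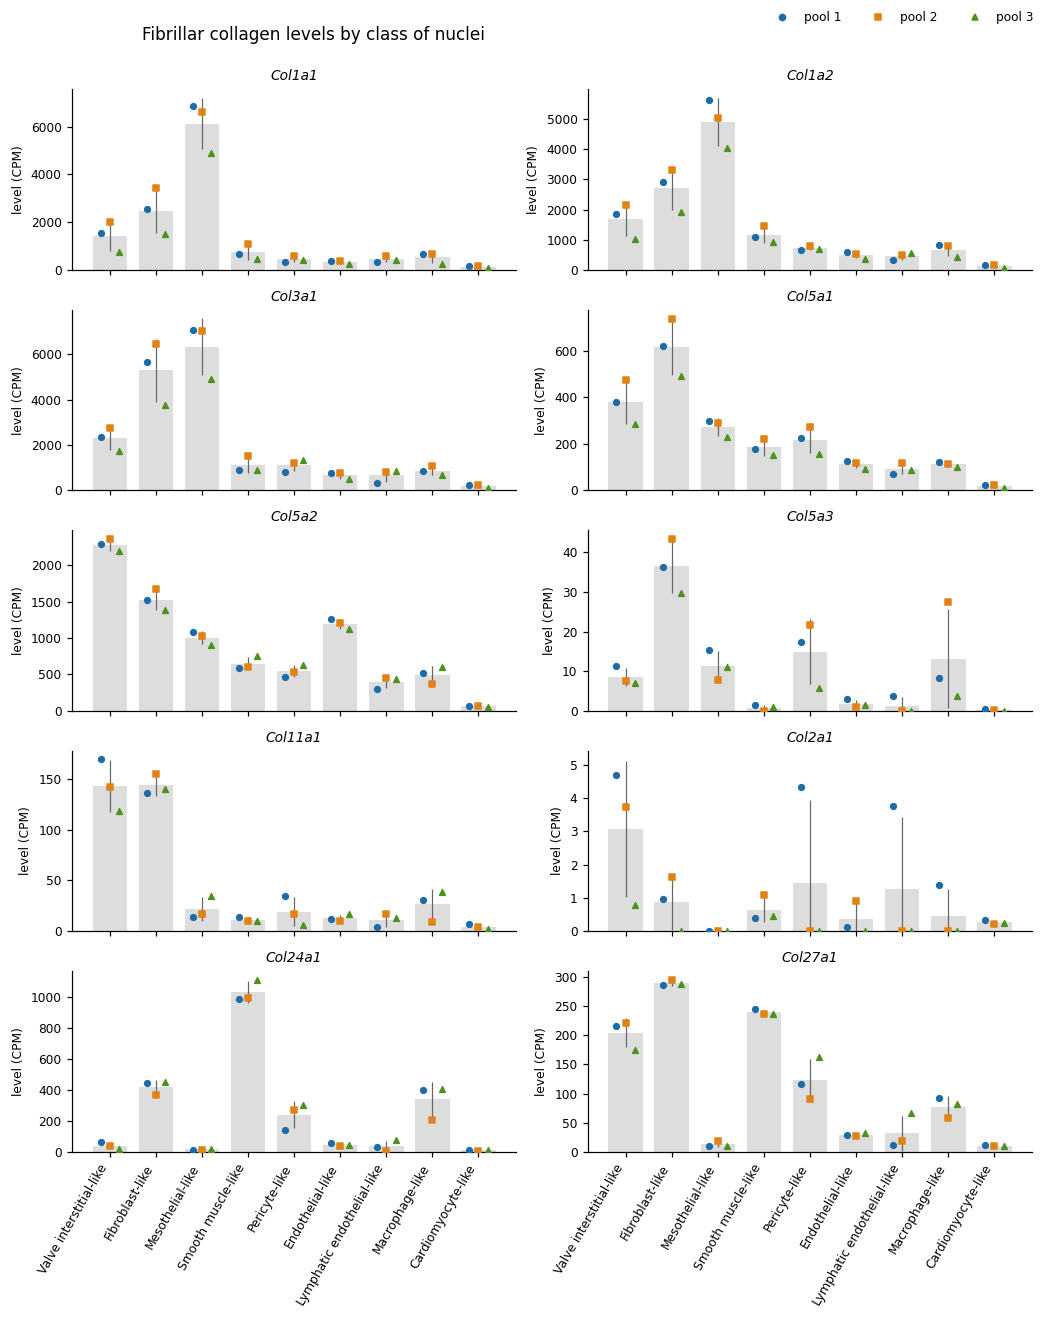
Level of each fibrillar collagen gene (CPM, linear axis from 0, a scale of its own in each panel) in 9 classes of nuclei; points are the 3 pools, bars their mean and lines the SD. Col1a1, Col1a2 and Col3a1 peak in mesothelial-like nuclei, Col5a2 in valve interstitial-like nuclei (2282 CPM) and Col24a1 in smooth muscle-like nuclei (1033 CPM), while Col11a1 is shared by fibroblast-like and valve interstitial-like nuclei (144 and 143.5 CPM).

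Among the chains of type I and type III collagen, Col1a1, which encodes the alpha-1 chain of type I collagen, stood at 6851, 6630 and 4889 CPM in mesothelial-like nuclei of pools 1, 2 and 3. It was 2534, 3414 and 1505 CPM in fibroblast-like nuclei and 1554, 2020 and 733 CPM in valve interstitial-like nuclei. The mesothelial-like values lay above those of all other classes, while fibroblast-like and valve interstitial-like pools overlapped, as did valve interstitial-like and smooth muscle-like pools (650, 1098 and 477 CPM). Col1a2, the partner chain, had the same leading order, at 4900 ± 794 CPM in mesothelial-like, 2710 ± 725 in fibroblast-like, 1680 ± 573 in valve interstitial-like and 1145 ± 270 in smooth muscle-like nuclei. Col3a1, which encodes the single chain of type III collagen, was 7088, 7013 and 4893 CPM in mesothelial-like nuclei and 5651, 6473 and 3743 CPM in fibroblast-like nuclei, and these ranges overlapped. In valve interstitial-like nuclei Col3a1 was 2358, 2756 and 1745 CPM, below every fibroblast-like pool. Mesothelial-like nuclei were 2.72% of all nuclei on average and gave 33.8% ± 8.62 of all Col1a1 UMIs. Their median depth, 9963.5 UMIs per nucleus, was the largest of the 9 classes.

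Among the type V chains, Col5a2 was the member that ranked valve interstitial-like nuclei highest: 2287, 2360 and 2199 CPM, against 1521, 1676 and 1387 CPM in the fibroblast-like class, 1256, 1201 and 1117 CPM in the endothelial-like class and 1076, 1023 and 902 CPM in mesothelial-like nuclei. Taken as whole classes, none of these 4 ranges overlapped its neighbour in the order. The spread of Col5a2 between pools within valve interstitial-like nuclei was 80.8 CPM (SD). Smooth muscle-like nuclei held 647 ± 91.2 CPM and cardiomyocyte-like nuclei 61.5 ± 11.1 CPM. Col5a1, the chain found in most type V molecules, followed another order, with 616 ± 123 CPM in fibroblast-like, 378 ± 94.8 in valve interstitial-like and 272 ± 38.1 in mesothelial-like nuclei. Endothelial-like nuclei, high in Col5a2, held only 112 ± 17.7 CPM of Col5a1. Col5a3, a rarer chain of type V, was highest in fibroblast-like nuclei at 36.3, 43.4 and 29.7 CPM and was 8.56 ± 2.33 CPM in valve interstitial-like nuclei. In smooth muscle-like nuclei Col5a3 gave 10, 0 and 2 UMIs in the 3 pools.

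Col11a1, a chain of type XI collagen, was 170, 143 and 118 CPM in valve interstitial-like nuclei and 136, 155 and 140 CPM in fibroblast-like nuclei. These ranges overlapped, and the next class in the order, macrophage-like nuclei, held 26.3 ± 15.4 CPM. Col2a1 was nearly absent: the 48 UMIs in analysed nuclei included 13, 6 and 1 in the valve interstitial-like nuclei of pools 1, 2 and 3. Mesothelial-like nuclei had 0 Col2a1 UMIs, which allows up to 1.15, 2.91 and 5.51 CPM in the 3 pools at 3 counts. The list of 6 chondrocyte markers summed to between 2.32 and 10.6 CPM in valve interstitial-like nuclei, with Matn1 and Snorc at 0. Col11a2, a further chain of type XI collagen that was not among the members, gave 46, 25 and 6 UMIs in valve interstitial-like nuclei (12.3 ± 6.65 CPM), and its highest mean in any other of the 9 classes was 2.82 CPM, in endothelial-like nuclei.

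Of the short-helix pair, Col24a1 was 991, 994 and 1115 CPM in smooth muscle-like nuclei, above every pool of every other class tested. Fibroblast-like nuclei held 444, 365 and 449 CPM, macrophage-like 401, 206 and 408 CPM and pericyte-like 139, 272 and 302 CPM. This order depended on how the smooth muscle-like class was drawn: its mean Col24a1 level was 1033 CPM as reported, 688 CPM at a clustering resolution of 2, and 475 CPM with no mitochondrial limit, where pericyte-like nuclei held 1427 CPM. In that last setting the cluster led by Clca3a2 and Pi15 took the pericyte name; as reported it passed 5 smooth muscle and 4 pericyte markers and gave 8383 Col24a1 UMIs, against 3279 in the other smooth muscle-like cluster. Valve interstitial-like nuclei were near the low end, at 59.4, 36.7 and 15.5 CPM. Smooth muscle-like nuclei gave 55.1% ± 10.8 of all Col24a1 UMIs from 21.4% of nuclei. Beside the macrophage-like level, all 8 smooth muscle markers had UMIs in that class and summed to between 1062 and 1515 CPM, against 3088 to 3912 CPM in smooth muscle-like nuclei; the part of smooth muscle RNA in the macrophage-like Col24a1 level was not tested. Col27a1 was 290 ± 5.22 CPM in fibroblast-like, 240 ± 4.41 in smooth muscle-like, 205 ± 25.2 in valve interstitial-like and 123 ± 36.3 in pericyte-like nuclei, with 28.6 ± 2.84 CPM in endothelial-like and 12.4 ± 5.23 CPM in mesothelial-like nuclei. The fibroblast-like pools (286 to 296 CPM) did not overlap the smooth muscle-like pools (237 to 245 CPM), which in turn lay above the valve interstitial-like pools (175 to 221 CPM). The pair of short-helix collagens was thus low in mesothelial-like nuclei, the class with the most type I and type III RNA.

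Counts were summed per pool and class into 27 libraries and tested by quasi-likelihood in edgeR, with p-values adjusted by Benjamini-Hochberg over 14061 genes. Because the pool is a term of the model, each difference is set against the variation left after shifts shared by a whole pool are removed. Col2a1 fell under the filter on low counts, so 9 of the 10 members were tested. Log2 changes are given ± SE. The mean of the other classes is a mean of log2 levels, in which each class counts equally. Classes with low levels, such as cardiomyocyte-like nuclei, therefore pull it below the mean of the CPM values. The classes were built from other genes of the same nuclei.

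In valve interstitial-like nuclei against the mean of the other 8 classes, 8 members were higher and 1 was lower. Over all genes tested, 18.5% were higher and 15.3% lower, and the median log2 change was 1.07 for the members tested against -0.00 for all genes. Col11a1 had the largest difference, a log2 change of 2.94 ± 0.15 (edgeR adjusted p = 4.50e-17), followed by Col5a2 at 2.01 ± 0.10, Col27a1 at 1.90 ± 0.12 and Col5a1 at 1.38 ± 0.10. The type I and type III chains were higher by similar amounts, 0.95 ± 0.14 for Col1a1, 0.94 ± 0.12 for Col1a2 and 0.95 ± 0.16 for Col3a1. Mesothelial-like and fibroblast-like nuclei nevertheless held more CPM of each of these chains on average. Col5a3 was higher by 1.07 ± 0.35, although by mean CPM the class ranked 5 of the 9 for this gene. The Col5a3 call was lost without pool 1 (edgeR adjusted p = 0.0784) and without pool 3 (edgeR adjusted p = 0.0739). Its change was 1.70 with no mitochondrial limit. Col24a1 was the lower member, at -1.27 ± 0.25 (edgeR adjusted p = 0.000156). Each of these 9 differences had the same sign in 3 of 3 pools.

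Against fibroblast-like nuclei the valve interstitial-like class was lower for 7 members, higher for 1 and not called for 1, where 9.27% of all genes were lower and 8.29% higher. Col5a2 was the higher member, by 0.59 ± 0.16 on the log2 scale (edgeR adjusted p = 0.00717), although without pool 1 the adjusted p was 0.0543. Col24a1 was lower at -3.40 ± 0.28 (edgeR adjusted p = 4.76e-11), Col5a3 at -2.05 ± 0.33 and Col3a1 at -1.19 ± 0.23. Col1a1 (-0.81 ± 0.19), Col1a2 (-0.70 ± 0.18), Col5a1 (-0.70 ± 0.13) and Col27a1 (-0.49 ± 0.16) were lower by less. Col11a1 did not differ past the threshold, at 0.04 ± 0.16 (edgeR adjusted p = 0.927). The calls of Col1a1, Col1a2 and Col27a1 were lost when the nuclei were clustered at a resolution of 2 (edgeR adjusted p = 0.0624, 0.0662 and 0.285). The same 3 calls were lost with no pool term in the model (0.199, 0.126 and 0.0948). Col27a1 also lost its call without pool 1 (0.115) or without pool 3 (0.0537).

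Against smooth muscle-like nuclei, 6 members were higher in valve interstitial-like nuclei, 1 was lower and 2 were not called, with 15% of all genes higher and 14.5% lower. Col11a1 was higher by 3.47 ± 0.20 on the log2 scale (edgeR adjusted p = 2.55e-15), Col5a3 by 3.02 ± 0.51 and Col5a2 by 1.70 ± 0.16. Col3a1 (0.93 ± 0.23), Col5a1 (0.91 ± 0.14) and Col1a1 (0.81 ± 0.20) were higher as well. Col24a1 was lower at -4.84 ± 0.29 (edgeR adjusted p = 5.12e-15), the largest difference of any member in this comparison. With no mitochondrial limit these were -3.72 for Col24a1, 4.09 for Col11a1, 3.81 for Col5a3 and 1.62 for Col3a1, at resolution 2 they were -3.95 for Col24a1 and 3.98 for Col5a3, and at a minimum of 500 UMIs Col11a1 was 2.75, all still called. Col1a2 (0.40 ± 0.18, edgeR adjusted p = 0.0897) and Col27a1 (-0.34 ± 0.15, edgeR adjusted p = 0.0936) missed the threshold. Col1a2 passed it without pool 3 (0.56, edgeR adjusted p = 0.0122), and Col27a1 passed it without pool 2 (-0.42, edgeR adjusted p = 0.0160), with doublets kept (0.00617), at a minimum of 500 UMIs (0.0411) and with the members left in the clustering (0.0154).

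Fibroblast-like nuclei had more of all 9 members tested than the mean of the other classes, where 17.5% of all genes were higher and 10.9% lower. Col5a3 led at 3.38 ± 0.27 (edgeR adjusted p = 6.77e-12), then Col11a1 at 2.90 ± 0.16, Col24a1 at 2.55 ± 0.18 and Col27a1 at 2.45 ± 0.12. The other 5 lay between 1.34 ± 0.11 (Col5a2) and 2.29 ± 0.15 (Col3a1). Every one of the 9 differences had this sign in 3 of 3 pools, and Col5a3 was higher by 4.19 without pool 1. No other class compared in this way was higher for all members tested.

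Mesothelial-like nuclei against the mean of the other classes were higher for 6 members, lower for 2 and not called for 1. This class differed widely from the rest, with 33.2% of all genes higher and 25.5% lower. Col1a1 was higher by 3.64 ± 0.11 on the log2 scale (edgeR adjusted p = 5.70e-23), Col1a2 by 2.95 ± 0.11 and Col3a1 by 2.85 ± 0.14. Col5a3 (1.80 ± 0.36), Col5a1 (1.10 ± 0.11) and Col5a2 (0.92 ± 0.11) were higher by less. Col24a1 was lower at -2.78 ± 0.34 and Col27a1 at -2.44 ± 0.23. Col11a1 was not called, at -0.25 ± 0.29. With doublets kept, Col24a1 was -1.42 and Col27a1 -1.70, both still called.

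Smooth muscle-like nuclei were higher for 4 members, lower for 2 and not called for 3, with 22.6% of all genes higher and 19.8% lower. Col24a1 was higher by 4.18 ± 0.15 (edgeR adjusted p = 2.24e-20), which placed it at percentile 99.8 of the log2 changes of all 14061 genes, and Col27a1 by 2.29 ± 0.11. The Col24a1 change was 3.53 at resolution 2 and 2.89 with no mitochondrial limit, called in both. Col1a2 (0.49 ± 0.13) and Col5a1 (0.35 ± 0.10) were higher by small amounts. Col5a3 (-2.32 ± 0.63) and Col11a1 (-0.96 ± 0.24) were lower, and the Col5a3 call was lost without pool 1 (edgeR adjusted p = 1). Col1a1 (0.04 ± 0.15), Col5a2 (0.10 ± 0.12) and Col3a1 (-0.10 ± 0.18) were not called. With nuclei of at least 500 UMIs, 3 members were called (2 higher and 1 lower) in place of 6, where 24.9% of all genes were higher and 21.1% lower, so that count was near or below the share over all genes. The calls lost in that setting were those of Col11a1 (-0.26, edgeR adjusted p = 0.448), Col1a2 (0.0915) and Col5a1 (0.146). Col1a2 and Col5a1 also lost their calls with no pool term in the model (edgeR adjusted p = 0.0751 and 0.126). The same 2 calls were lost with no mitochondrial limit (0.0680 and 0.252). Col5a1 further lost its call without the lymphatic class (0.0853) and at resolution 2 (0.231). At resolution 2 Col5a3 was -2.93.

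Endothelial-like nuclei were lower for 8 members and higher for 1, where 16% of all genes were lower and 21.6% higher. The higher member was Col5a2, by 0.94 ± 0.11 (edgeR adjusted p = 2.21e-08). The lower members ran from Col5a1 at -0.60 ± 0.11 to Col1a1 at -1.39 ± 0.17, and Col5a3 (-1.38 ± 0.50) lost its call without pool 1 (edgeR adjusted p = 1) or without pool 2 (0.0601). Col11a1 (-1.10 ± 0.23) was -0.48 and lost its call with doublets kept (edgeR adjusted p = 0.0565).

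**Figure D2:**
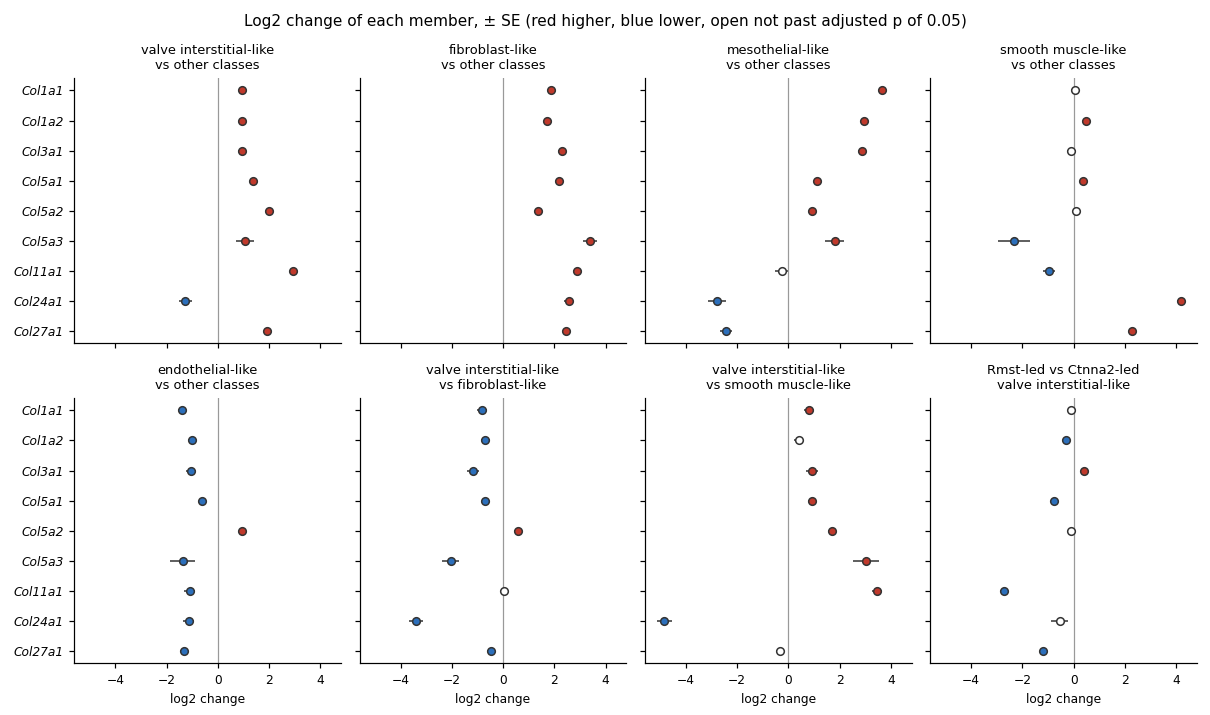
Log2 change of the tested members in 8 comparisons (9 members, or 8 between the valve interstitial-like clusters), with SE as horizontal lines (edgeR); red points are higher and blue points lower in the class named above each panel at an adjusted p under 0.05, open points are not past it. Col24a1 lies on opposite sides in valve interstitial-like (-1.27) and smooth muscle-like nuclei (4.18), and Col5a2 is the red point among the endothelial-like values (0.94).

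The valve interstitial-like class consisted of 2 clusters. The larger, of 948 nuclei, was led by Ctnna2 and Abi3bp, and the smaller, of 499 nuclei, by Rmst, Rnf43 and Adamts19. Col11a1 was 258, 213 and 183 CPM in the Ctnna2-led cluster and 44.5, 20.5 and 29.4 CPM in the Rmst-led cluster, so every pool of the former lay above every pool of the latter. Col27a1 was 284, 284 and 226 CPM against 122, 111 and 106 CPM, again without overlap. Col5a1 was 471, 526 and 362 CPM against 247, 381 and 176 CPM, with the ranges overlapping but the Ctnna2-led value higher within each pool.

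Tested over 9769 genes with edgeR, the Rmst-led cluster was lower for 4 of the 8 members tested, higher for 1 and not called for 3, where 7.37% of all genes were lower and 7.39% higher. Col2a1 and Col5a3 fell under the filter. Col11a1 was lower at -2.72 ± 0.16 (edgeR adjusted p = 9.54e-09), Col27a1 at -1.20 ± 0.11 (edgeR adjusted p = 1.22e-06), Col5a1 at -0.77 ± 0.11 and Col1a2 at -0.28 ± 0.08. Col3a1 was higher by 0.42 ± 0.10 (edgeR adjusted p = 0.00794), from 2423, 3614 and 2066 CPM against 2312, 2265 and 1512 CPM. The Col1a2 call was lost without pool 1 (edgeR adjusted p = 0.298) and the Col3a1 call without pool 2 (0.0564), while Col24a1 (-0.55 ± 0.33) passed the threshold without pool 1 (-1.83, edgeR adjusted p = 0.0145). With no pool term in the model, only the calls of Col11a1 and Col27a1 were kept, and those of Col5a1 (edgeR adjusted p = 0.0835), Col3a1 (0.334) and Col1a2 (0.736) were lost. Col5a2 and Col1a1 were not called (-0.11 ± 0.08 and -0.10 ± 0.09). Of the 20 Col2a1 UMIs of the class, 18 were in the Ctnna2-led cluster.

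Clusters within the fibroblast-like and smooth muscle-like classes were compared by their values only, since these contrasts were picked after the levels were seen. In fibroblast-like nuclei, the cluster led by Tmeff2, Fgf10 and Clec3b held 8483 ± 2153 CPM of Col3a1 and 4639 ± 1638 of Col1a1, against 4236 ± 1097 and 1778 ± 729 in the cluster led by Abca8a. Col11a1 ran the other way, at 43.1 ± 11.8 CPM in the Tmeff2-led and 178 ± 10.1 in the Abca8a-led cluster, and so did Col27a1, at 163 ± 23.4 and 332 ± 8.41 CPM. The Tmeff2-led cluster thus held more type I and type III RNA and the Abca8a-led cluster more Col11a1 and Col27a1, while Col2a1 gave 2 UMIs in each. In every pool Col3a1 of the Tmeff2-led cluster (8148, 10784 and 6518 CPM) lay above that of mesothelial-like nuclei (7088, 7013 and 4893 CPM). Its mean Col1a1 was lower than the mesothelial-like mean (4639 against 6123 CPM). In smooth muscle-like nuclei, Col24a1 was 1535, 1550 and 1453 CPM in the cluster led by Clca3a2 and Pi15 and 567, 467 and 558 CPM in the cluster led by Ptprz1 and Mylk4. Col24a1 was among the top 10 genes of the Clca3a2-led cluster by fold, although it was kept out of the clustering. Col3a1 was also higher there, at 1500 ± 476 against 700 ± 274 CPM, while Col27a1 was 263 ± 25.2 against 219 ± 9.83 CPM.

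**Figure D3:**
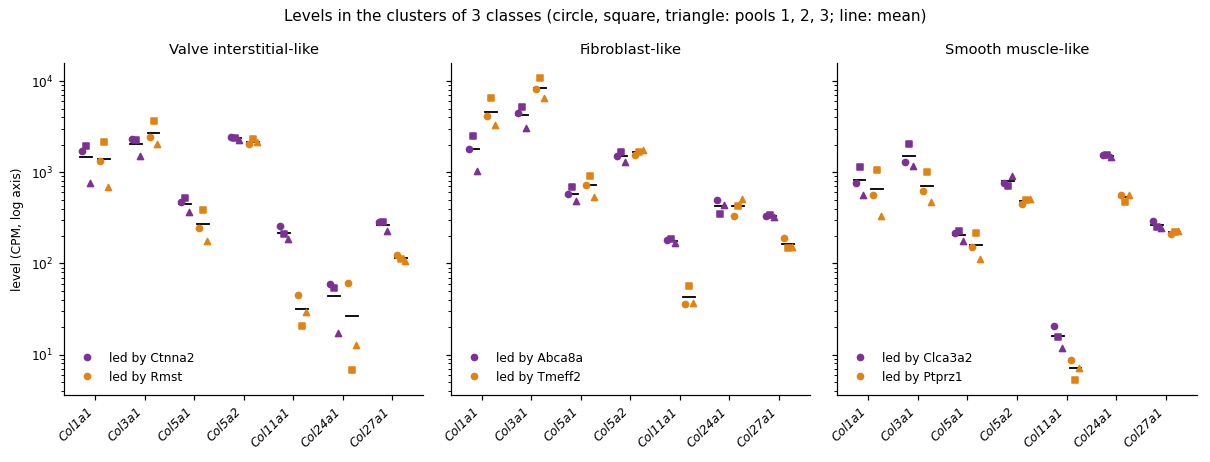
Levels of 7 members (CPM, log axis) in the 2 clusters of each of 3 classes; circles, squares and triangles are pools 1, 2 and 3, and short lines are means. Col11a1 and Col27a1 are lower in the Rmst-led than in the Ctnna2-led valve interstitial-like cluster (31.5 against 218 CPM for Col11a1), and Col24a1 is higher in the Clca3a2-led smooth muscle-like cluster (1513 against 531 CPM).

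Endothelial-like nuclei fell into 7 clusters, and their Col5a2 level spanned a wide range. It was 2301, 2245 and 2159 CPM in the cluster led by Mannr, Ptchd1 and Sema3g, whose top 10 genes include the arterial gene Gja5. These Mannr-led values overlapped those of the valve interstitial-like class (2287, 2360 and 2199 CPM), whose Rmst-led cluster held 2161 ± 146 CPM. Col5a2 was 2037, 2109 and 1894 CPM in the cluster led by Rtl4 and Cytl1, and 1065, 1273 and 1084 CPM in the cluster led by Kcnc2, whose top genes include the ligand genes Wnt9b and Wnt4. The lowest of the 6 clusters with enough nuclei in each pool, led by Dlgap2 and Cntnap5a, held 225, 208 and 253 CPM, below the valve interstitial-like level in every pool. Col5a1 followed another order, at 171 ± 41.5 CPM in the Kcnc2-led, 166 ± 21.3 in the Rtl4-led, 95.4 ± 17.0 in the Pcdh17-led, 55.5 ± 23.8 in the Dlgap2-led, 55.4 ± 16.7 in the Mannr-led and 48.1 ± 16.7 CPM in the Grid1-led cluster. The Mannr-led cluster, with the highest mean Col5a2 of the 6, was thus among the low clusters for Col5a1, while the Rtl4-led cluster was high for both.

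The ratio of UMIs of chain partners compares the make-up of collagen RNA between classes within a library. The ratio of a pair is not the ratio of transcripts, because capture can differ between genes, but it can be set side by side across classes. Col5a1 to Col5a2 was 0.0992, 0.0993 and 0.0819 in endothelial-like nuclei and 0.165, 0.201 and 0.129 in valve interstitial-like nuclei. In fibroblast-like nuclei it was 0.409, 0.439 and 0.354, so the 3 classes did not overlap. Col11a1 to Col5a1 was 0.448, 0.301 and 0.417 in valve interstitial-like, 0.219, 0.211 and 0.285 in fibroblast-like and 0.0770, 0.0468 and 0.0659 in smooth muscle-like nuclei, again without overlap. Col1a1 to Col1a2 was above 1 in each mesothelial-like pool (1.22, 1.32 and 1.21) and below 1 in each smooth muscle-like pool (0.603, 0.761 and 0.522). Valve interstitial-like nuclei lay between these within each pool, at 0.836, 0.943 and 0.705, although the value of 0.705 fell inside the smooth muscle-like range. Col3a1 to Col1a1 was near 1 in mesothelial-like nuclei (geometric mean 1.03) and 2.19 in fibroblast-like nuclei. In valve interstitial-like nuclei it was 1.52, 1.36 and 2.38, with pool 3 apart from the others.

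**Figure D4:**
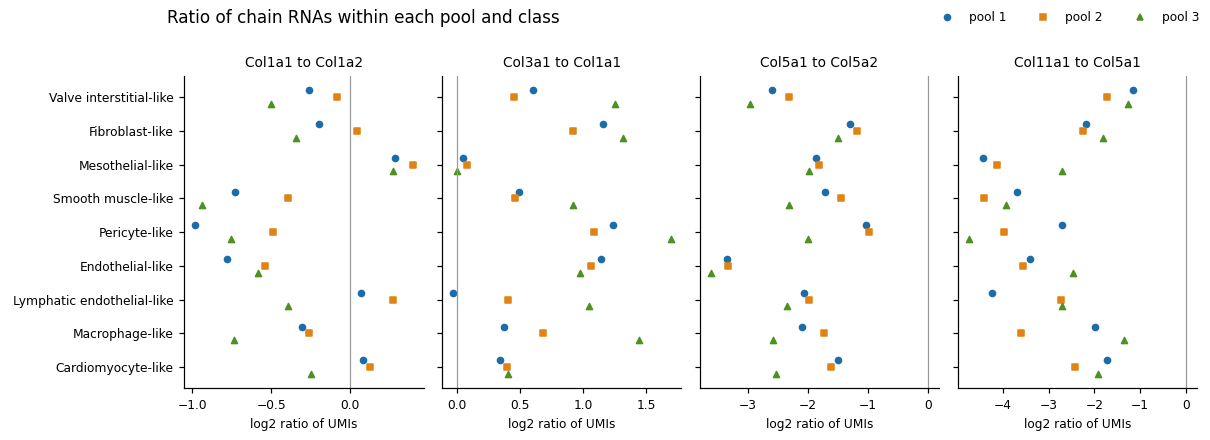
Log2 ratio of UMIs for 4 pairs of collagen chains in each class; points are pools and the vertical line marks a ratio of 1. Endothelial-like nuclei have the lowest Col5a1 to Col5a2 ratio (0.0819 to 0.0993) and valve interstitial-like nuclei the highest Col11a1 to Col5a1 ratio by geometric mean (0.383).

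To compare shares of nuclei, each nucleus was thinned at random to 1000 UMIs. Free RNA adds some UMIs to nuclei that do not express a gene, and cardiomyocyte-like nuclei (median 5451 UMIs before thinning) were taken as the reference class, on the assumption that they lack these collagens, which was not tested. The reference class leaves out the unnamed haemoglobin-led cluster of 619 nuclei, which passed 7 of 10 cardiomyocyte markers. The cardiomyocyte-like share with a UMI was 11.5% ± 4.91 for Col1a1, 12.7% ± 5.69 for Col1a2 and 14.7% ± 6.10 for Col3a1, and shares of these 3 at or below those values were not read as expression. It was 4.94% ± 1.59 for Col5a2, 1.64% ± 0.770 for Col5a1, 1.06% ± 0.383 for Col27a1 and under 1% for the other 4 members. Valve interstitial-like nuclei (median 3596 UMIs) had a Col5a2 UMI in 77.6% ± 1.26 (94.3% unthinned), a Col3a1 UMI in 73.6% ± 5.91 (91.8%) and a Col1a1 UMI in 51.8% ± 11.9 (78.0%). Col5a2 was thus found in most nuclei of this class, with little difference between pools. Col24a1 was found in 40.3% ± 1.30 of smooth muscle-like nuclei (59.1% unthinned), 20.4% ± 2.68 of fibroblast-like nuclei and 2.65% ± 1.15 of valve interstitial-like nuclei. Col11a1 was found in 8.95% ± 2.97 of valve interstitial-like and 8.94% ± 1.13 of fibroblast-like nuclei (16.7% and 21.2% unthinned). At this depth the shares of a gene as weakly captured as Col11a1 or Col5a3 say little about how many nuclei express it. Col2a1 was found in 3 of 645, 4 of 364 and 0 of 438 valve interstitial-like nuclei, where 0 of 438 allows a share of up to 0.685% by the limit of 3 counts (the 95% Wilson interval drawn in the plot of shares reaches 0.869%); this limits nuclei with a UMI, not nuclei that express the gene. Differences in shares were not tested.

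**Figure D5:**
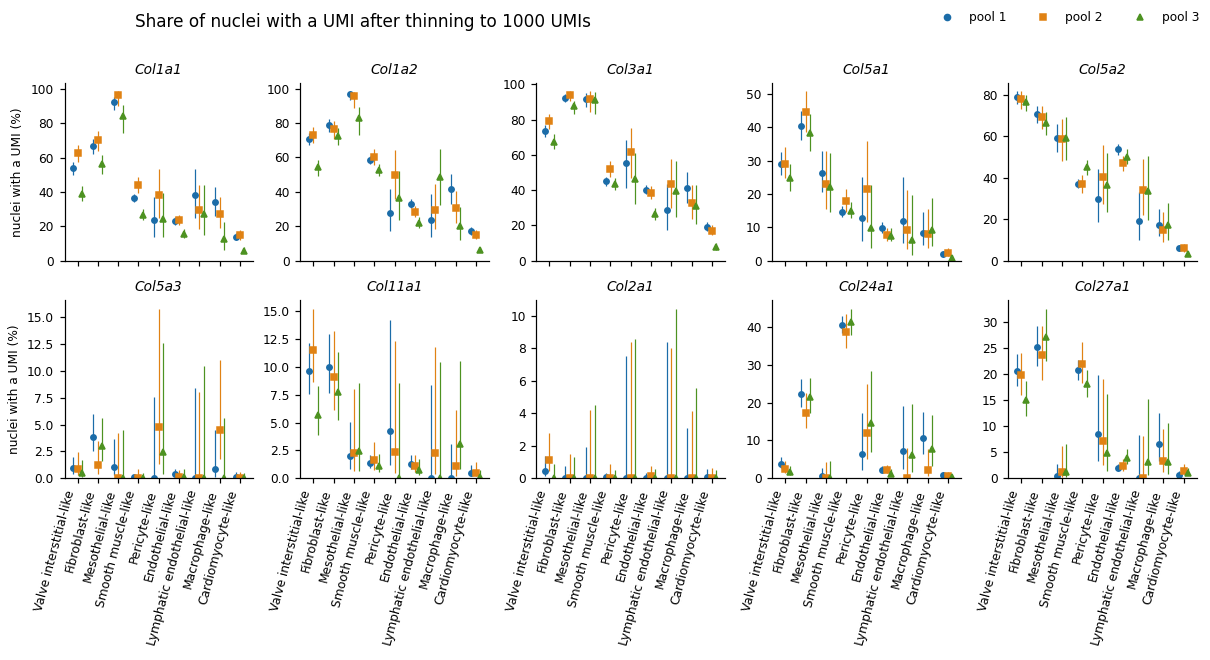
Share of nuclei with a UMI of each member after thinning to 1000 UMIs per nucleus, by class; points are pools and lines 95% Wilson intervals, which cover counting error only. Col5a2 is found in 76.3% to 78.8% of valve interstitial-like nuclei and Col24a1 in 38.9% to 41.4% of smooth muscle-like nuclei.

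Counted per nucleus after thinning, the mean number of members with a UMI was 3.99 ± 0.161 in fibroblast-like, 3.61 ± 0.154 in mesothelial-like, 3.28 ± 0.384 in valve interstitial-like, 2.57 ± 0.151 in smooth muscle-like and 0.474 ± 0.194 in cardiomyocyte-like nuclei. At least 3 members were found in 90.0% ± 7.72 of mesothelial-like, 87.7% ± 3.00 of fibroblast-like, 70.0% ± 10.3 of valve interstitial-like and 50.7% ± 5.04 of smooth muscle-like nuclei. The most collagen-rich classes therefore carried several chains in the same nucleus. Within valve interstitial-like nuclei, Col1a2 was found in 74.4% ± 7.75 of nuclei with a Col1a1 UMI and 57.1% ± 8.95 of those without, higher in 3 of 3 pools. Col1a2 was likewise found in 85.3% ± 8.32 of the 129 nuclei with a Col11a1 UMI and 64.1% ± 9.90 of the rest, also in 3 of 3 pools. Col5a2 differed less with Col5a1, at 79.2% ± 6.93 of nuclei with a Col5a1 UMI and 76.9% ± 1.93 of those without, higher in 1 of 3 pools.

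Across the 27 libraries, which share 3 pools and 9 classes, the log2 CPM of Col1a1, Col1a2 and Col3a1 followed each other closely. Pearson's r was 0.97 for Col1a1 with Col1a2, 0.98 for Col1a2 with Col3a1 and 0.96 for Col1a1 with Col3a1, and Thbs2, which encodes the matricellular protein thrombospondin 2, was as alike (0.96 to 0.98). Col24a1 stood apart from these 3 (0.047 with Col1a1, 0.21 with Col1a2 and 0.19 with Col3a1) and was closest among members to Col27a1 (0.78). Of all 14061 genes, those most like Col5a1 were Dsel (0.96), Col14a1 (0.92) and Gli2 (0.92). For Col5a2 they were Sh3d19 (0.92), Nfix (0.91) and the surface antigen gene Cd34 (0.91). For Col11a1 they were Sox9 (0.91), the transcription factor gene of cartilage and valve mesenchyme, Plxdc1 (0.91) and Itih5 (0.89). Sox9 was among the markers that named the valve interstitial-like class. The genes most like Col24a1 were Pi15 (0.93), Niban1 (0.92) and Arhgap24 (0.90), and those most like Col27a1 were Dnm3os (0.96), Adamts12 (0.94) and Dclk1 (0.94). Col5a3 was closest to Il1rl2 (0.86), S1pr2 (0.83) and Naalad2 (0.82), on few UMIs.

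Genes that process or bind fibrillar collagen were followed in lists of 14 hydroxylation and glycosylation genes, 10 folding and export genes, 8 propeptide removal genes and 7 receptors. With Col11a2, which fell under the filter between classes, these were 40 genes, of which 39 were tested. In valve interstitial-like nuclei against the mean of the other classes, 22 were higher, 0 lower and 17 not called (18.5% and 15.3% of all genes were higher and lower), and all 7 receptors were among the higher. The largest differences were those of Itga10 (2.87 ± 0.13) and Itga11 (2.66 ± 0.24), alpha subunits of collagen-binding integrins, and P3h2 (2.27 ± 0.12), a prolyl 3-hydroxylase. Fibroblast-like nuclei had 27 higher and 0 lower, where 17.5% and 10.9% of all genes were, led by Adamts14 (2.66 ± 0.20), a procollagen N-proteinase. Against fibroblast-like nuclei, valve interstitial-like nuclei had 5 higher, led by Itga10 (3.16 ± 0.21), and 9 lower, led by Adamts14 (-1.65 ± 0.24), where 8.29% of all genes were higher and 9.27% lower. Itga10 was thus the receptor that most separated the leaflet class from fibroblast-like nuclei, while the median over the 39 genes was -0.09.

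Mesothelial-like nuclei had 21 of these 39 genes higher and 9 lower, where 33.2% of all genes were higher and 25.5% lower, so the lower count was near the share over all genes. The largest were Tll1 (5.43 ± 0.17), a procollagen C-proteinase of the BMP1 family, Creb3l1 (4.04 ± 0.14), a transcription factor of the secretory pathway known to act on collagen genes, and Pcolce (4.0 ± 0.09), which enhances C-propeptide removal. P3h2 (-3.05 ± 0.25), Adamts14 (-2.58 ± 0.50) and Pcolce2 (-2.52 ± 0.48) were lower there. Smooth muscle-like nuclei had 15 higher and 7 lower, the latter again near the share over all genes (22.6% higher and 19.8% lower), with Adamts14 (2.55 ± 0.18), Itga11 (2.17 ± 0.24) and Pcolce2 (2.16 ± 0.19) at the top and Colgalt2 (-1.88 ± 0.33), a collagen galactosyltransferase, and Pcolce (-1.24 ± 0.14) at the bottom. The enhancers Pcolce and Pcolce2 therefore ran in opposite directions in these 2 classes. Endothelial-like nuclei had 12 higher and 13 lower (21.6% and 16% of all genes), with the integrin gene Itga2 higher (2.67 ± 0.17) and the collagen receptor genes Ddr2 (-2.34 ± 0.15) and Mrc2 (-1.71 ± 0.12) lower. Between the valve interstitial-like clusters, the Rmst-led cluster was higher for Itga10 (1.62 ± 0.15) and lower for Itga11 (-2.43 ± 0.31), Adamts3 (-2.05 ± 0.28) and P3h2 (-1.14 ± 0.12), with 4 of 38 genes higher, near the 7.39% of all genes, and 10 lower, against 7.37% of all genes.

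The last comparison used the Scx reporter. EGFP RNA was highest in valve interstitial-like nuclei, at 89, 63 and 31 UMIs in the 3 pools (31.8 ± 7.65 CPM). The next classes were endothelial-like nuclei, at 97, 53 and 26 UMIs (11.6 ± 1.78 CPM), and mesothelial-like nuclei (7.12 ± 3.19 CPM), and cardiomyocyte-like nuclei held 3.00 ± 0.402 CPM. The 78, 52 and 29 valve interstitial-like nuclei with an EGFP UMI were each matched to a nucleus without, of the same pool and cluster and of similar depth. Col1a1 gave 1007, 756 and 224 UMIs in nuclei with EGFP and 465, 554 and 88 in those without, which is more in each pool. Col5a1 gave 203, 146 and 65 against 143, 106 and 26 UMIs, and Col1a2 gave 1012, 673 and 197 against 660, 547 and 141. Col5a2 gave 997, 645 and 249 against 807, 666 and 274 UMIs, which was more with EGFP in pool 1 only.

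No member passed the threshold in this comparison (edgeR, 0 of 8 tested), where 0.0369% of 5416 genes were higher and 0.0739% lower. At an unadjusted p under 0.05, where 3.66% of all genes were higher and 2.60% lower, there were 3 members, all higher: Col1a1, with a log2 change of 0.92 ± 0.20 (edgeR adjusted p = 0.0875), Col5a1 at 0.65 ± 0.18 (0.401) and Col1a2 at 0.45 ± 0.18 (0.735). DESeq2 also called 0. Without pool 3 the Col1a1 change was 0.78 and was called (edgeR adjusted p = 0.00140). With nuclei matched within pool and class only, Col1a1 (1.10, edgeR adjusted p = 0.0325) and Col5a1 (0.93, edgeR adjusted p = 0.0386) were called. Col5a2 (0.03 ± 0.19), Col11a1 (-0.08 ± 0.21), Col3a1 (0.32 ± 0.18), Col27a1 (0.35 ± 0.22) and Col24a1 (0.75 ± 0.46) were not called under any of these settings, although Col11a1 changed sign to 0.66 with matching within pool and class only. These standard errors are too large to show that the nuclei were alike.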

How the data were processed

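The authors deposited UMI counts per gene and nucleus for 3 pools, made with Cell Ranger 7.0.1 and 7.1.0 on GRCm39, per the submitters' processing notes. Whether intronic reads were counted is not given in the sources used here. The pools held 49918251, 25341316 and 21254247 UMIs, and nothing links a nucleus to an animal. With the pool as a term, p-values measure how the differences between the groups compared vary between pools. They do not measure the spread of levels between pools.

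Minima of 1000 UMIs and 300 genes per nucleus and a mitochondrial limit of 5% were applied. Scrublet's own threshold marked 427, 0 and 0 doublets, so the highest scores were removed instead, at 0.8% per 1000 deposited nuclei (597, 154 and 138). Clustering used scanpy 1.11.5 (2000 variable genes, 30 components, Leiden resolution 1) without the 10 members and 40 pathway genes. A cluster was named where at least 3 markers of a class passed a 2-fold and 10% detection rule. The haemoglobin-led cluster passed 7 of 10 cardiomyocyte markers and was left unnamed by a rule added after its genes were seen. A class needed 20 nuclei in each pool to be tested with edgeR 4.0.16 (TMM, low-count filter, class and pool as terms), in R 4.3.3. The pools supply every class, so the pool number pairs the libraries. Alternatives were DESeq2 1.42.0, other filters, resolutions and thinning depths, and each pool left out. The edgeR code was tested on simulated data. Genes named for likeness were the 3 with the highest Pearson's r, and pathway genes the 3 with the largest called change in each direction. The members, lists and comparisons were chosen with earlier results of these data known. Promoter sequences are RefSeq's on GRCm38.p6, and no coordinates were carried between builds. Intervals and floors cover counting error only.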

Additional observations from a re-analysis of the deposited data

Results flagged for a closer look

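Fibrillar collagen RNA was also found in nuclei outside the 9 classes compared, at summed levels above the 551 ± 211 CPM of cardiomyocyte-like nuclei in the same pools. The unnamed cluster led by Hbb-bt and Hbb-bs held a summed level of 7388 CPM (SD 3749, n = 3 pools; 10344.5, 8647 and 3171 CPM in pools 1, 2 and 3), with 346, 230 and 43 nuclei. This haemoglobin-led cluster passed 7 of 10 cardiomyocyte markers and 4 erythroid markers, at a median of 2024 UMIs per nucleus. The unnamed cluster led by Neil3 and Diaph3, genes of dividing cells, held 5737 ± 1624 CPM. The unnamed cluster led by Mylk4 held 3778 ± 382 CPM, from 48, 15 and 172 nuclei. Adipocyte-like nuclei held 2881 ± 377 CPM from 45, 10 and 2 nuclei, and melanocyte-like nuclei 2600.0 ± 1321 CPM from 35, 19 and 16 nuclei. None of these differences was tested.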

How the results depend on the processing

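Of 95 recomputed counts of called members, 88 stayed within 1.5 times the value reported. Valve interstitial-like against fibroblast-like nuclei gave 8 calls, 5 with no replicate block (no pool term) and 5 at resolution 2. Smooth muscle-like nuclei gave 6 calls, and 3 at a minimum of 500 UMIs. The valve interstitial-like clusters gave 5 calls and 2 with no replicate block. The EGFP comparison gave 0 calls, 1 with no low-count filter (Col1a1, edgeR adjusted p = 4.02e-05), 2 with matching by pool and class only, and 0 to 1 with a pool left out. With a pool left out, the other counts ranged from 8 to 9 (valve interstitial-like), 6 to 8 (against fibroblast-like), 7 to 8 (against smooth muscle-like), 9 to 9 (fibroblast-like), 5 to 6 (smooth muscle-like), 8 to 9 (endothelial-like), 8 to 8 (mesothelial-like) and 4 to 5 (clusters).

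Of 841 recomputed log2 changes, 771 kept direction and call, 33 lost and 17 gained the call, and 20 changed sign. All that changed sign were small and not called as reported. With a pool left out, these ranged from -0.14 to 0.16 for Col11a1 against fibroblast-like nuclei (negative without pool 1), from -0.034 to 0.12 for Col1a1 (negative without pool 2) and from -0.016 to 0.23 for Col5a2 (negative without pool 3) in smooth muscle-like nuclei, and from -0.55 to 0.30 for Col11a1 in mesothelial-like nuclei (positive without pool 1). They ranged from -0.25 to 0.027 for Col1a1 between the clusters (positive without pool 1) and, in the EGFP comparison, from -0.12 to 0.13 for Col5a2 (negative without pool 1) and from -0.26 to 0.018 for Col11a1 (positive without pool 3). In smooth muscle-like nuclei, Col1a1 was -0.0094 by DESeq2, -0.076 without the lymphatic class, -0.085 with doublets kept, -0.34 with no mitochondrial limit, -0.23 at 500 UMIs, -0.23 at resolution 2 and -0.15 with members left in the clustering. Col5a2 there was -0.017 without the lymphatic class, -0.22 with no mitochondrial limit and -0.084 at resolution 2. Col11a1 was -0.036 against fibroblast-like nuclei with doublets kept, 0.014 in mesothelial-like nuclei with no mitochondrial limit and 0.66 in the EGFP comparison with matching by class. The cause was not tested.

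The class with the highest level was the same in all 9 settings for each member but 2. For Col11a1 it was fibroblast-like in 4 and valve interstitial-like in 5, and for Col24a1 it was pericyte-like with no mitochondrial limit, where the Pi15 cluster took the pericyte name. Of 720 recomputed levels, 40 moved by more than their SD between pools. Shares depended on depth, and 147 of 180 moved by more than their SD. Col2a1 and Col5a3 were limited by their few UMIs.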
